A study of Homo sapiens
Mus musculus and Homo sapiens with 12 samples.

Results

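The proteasome is the protease that degrades ubiquitin-tagged proteins in every human cell. Its core, the 20S particle, is a barrel of alpha and beta rings, and 3 of the beta subunits carry the cutting sites. The 19S particle caps the barrel: its ATPases unfold the substrate and thread it in, and its other subunits bind and remove ubiquitin. Activators of the PSME family open the barrel in place of the 19S particle, PSMF1 inhibits it, and PSMG proteins help to assemble it. Interferon induces replacement beta subunits, of which PSMB8 and PSMB9 were left out by the choice of genes and PSMB10 was kept.

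The genes described are the 46 human genes, of 18793 with a coding RefSeq accession, whose symbols begin with PSMA to PSMG followed by a number, without PSMB8, PSMB9 and pseudogenes. Classed by symbol alone, they comprise 8 alpha, 9 beta, 6 ATPase and 14 other 19S genes, 4 activators, 1 inhibitor and 4 PSMG assembly chaperones. The rule uses gene symbols alone, but it was chosen with earlier results of these data known.

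Polyadenylated RNA had been sequenced from 12 samples. Heterokaryons are transient cells that hold separate nuclei, here made by fusing D3 mouse embryonic stem cells with MRC5 human lung fibroblasts, and were sampled on days 1, 2 and 3 with 2 libraries each. The controls were 2 co-cultures of both cell types left unfused and harvested as one pool, 1 homokaryon sample of fibroblasts fused with each other, and unfused fibroblasts in 3 libraries. The labels name no treatment. No label ties the replicates to separate cultures, and p-values here reflect the spread among these libraries alone, which may be technical. Only the human transcripts are described, and how reads common to both species were assigned was not given in the sources used here. In bulk RNA, fewer human cells and less RNA per cell cannot be told apart.

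Each of the 11 tables with human accessions held 10000 distinct values in accession order. Past the accession with the last new value, 195 to 589 further rows were listed, each repeating a value given earlier, and accessions there were treated as not covered. Of the 46 genes, 29 were covered in full by 10 libraries, 10 in part, and 7 (PSMC4, PSMD6, PSMD14, PSME1, PSME4, PSMF1 and PSMG2) had no accession covered by all 10. The partly covered genes were PSMA1, PSMA3, PSMA8, PSMD5, PSMD10, PSMD12, PSMD13, PSME3, PSMG1 and PSMG3. Of the 29, PSMB11, the thymus-specific beta subunit, was at 0 in all 10 libraries, and the remaining 28 are the basis of the values below. The table of unfused fibroblast replicate 1 covered only PSMG4 and PSMB11 in full, and 12191 of its 17527 rows were not human accessions. Replicate 3 held no human accession in any of its 8070 rows and was not used. The unfused fibroblast is therefore represented by replicate 2 for 27 of the 28 genes. Values are in a unit of the RPKM form (reads per transcript length and library), so that levels can be compared between genes, but read depth is unknown. Of 15 fibroblast marker genes 9 were covered, and their summed level lay between 4690 and 7753 in the heterokaryons, between 6963 and 7051 in co-culture, at 7662 in unfused fibroblasts and at 16020 in the homokaryon. Of 12 pluripotency genes 4 were covered, SOX2, LIN28B, DPPA5 and UTF1, and SOX2 was at 0 in all 10 libraries. The summed level of the 4 was 0.998 to 1.89 on day 2 and 0.282 to 0.608 on day 3. It was 0 on day 1, in co-culture, in the homokaryon and in the unfused fibroblast library. LIN28B was above 0 in every day 2 and day 3 library, DPPA5 only in day 2 replicate 1 and UTF1 only in day 3 replicate 2.

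Over the fully covered genes, the 9 beta subunits had the largest summed level of any class in each of the 10 libraries, from 977 to 1548. The other classes held 5 alpha, 5 ATPase, 8 other 19S, 1 activator and 1 assembly chaperone gene with full coverage. Class size and coverage therefore enter this order. PSMB4 was the highest of the 28 genes, with values of 445 and 455 on day 1, 373 and 393 on day 2, 388 and 302 on day 3, 279 in the homokaryon, 335 and 271 in co-culture and 406 in the unfused fibroblast library. Its mean over 10 libraries was 365 ± 65.6 (SD), followed by PSME2, PSMB3, PSMD2 and PSMB5. Among alpha subunits PSMA7 had the highest mean over the 10 libraries, at 139 and 167 on day 1, 112 and 115 on day 2, 174 and 113 on day 3, 103 in the homokaryon, 148 and 133 in co-culture and 146 in the unfused fibroblast library. PSMC5 had the highest mean of the ATPases, at 80.1 and 71.6 on day 1, 107 and 111 on day 2, 136 and 76.1 on day 3, 113 in the homokaryon, 153 and 86.5 in co-culture and 139 in the unfused fibroblast library. PSMA7 and PSMC5 overlapped between co-culture and most heterokaryon days, with PSMA7 below both co-cultures on day 2 and PSMC5 below both on day 1. PSMD2, a scaffold subunit of the 19S base, had the highest mean of the other 19S genes, at 162 and 244 on day 1, 188 and 167 on day 2, 208 and 126 on day 3, 107 in the homokaryon, 182 and 173 in co-culture and 310 in the unfused fibroblast library. PSMD2 overlapped co-culture on all 3 days and was highest in the unfused fibroblast library. These means do not give the order in each library: PSMA6 exceeded PSMA7 in day 1 replicate 1 and day 2 replicate 2, PSMC3 exceeded PSMC5 in the unfused fibroblast library, and PSMD8 or PSMD4 exceeded PSMD2 in 5 of the 10 libraries. PSMG4, the only fully covered gene of the PSMG class, ranged from 0 to 11.4.

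**Figure D1:**
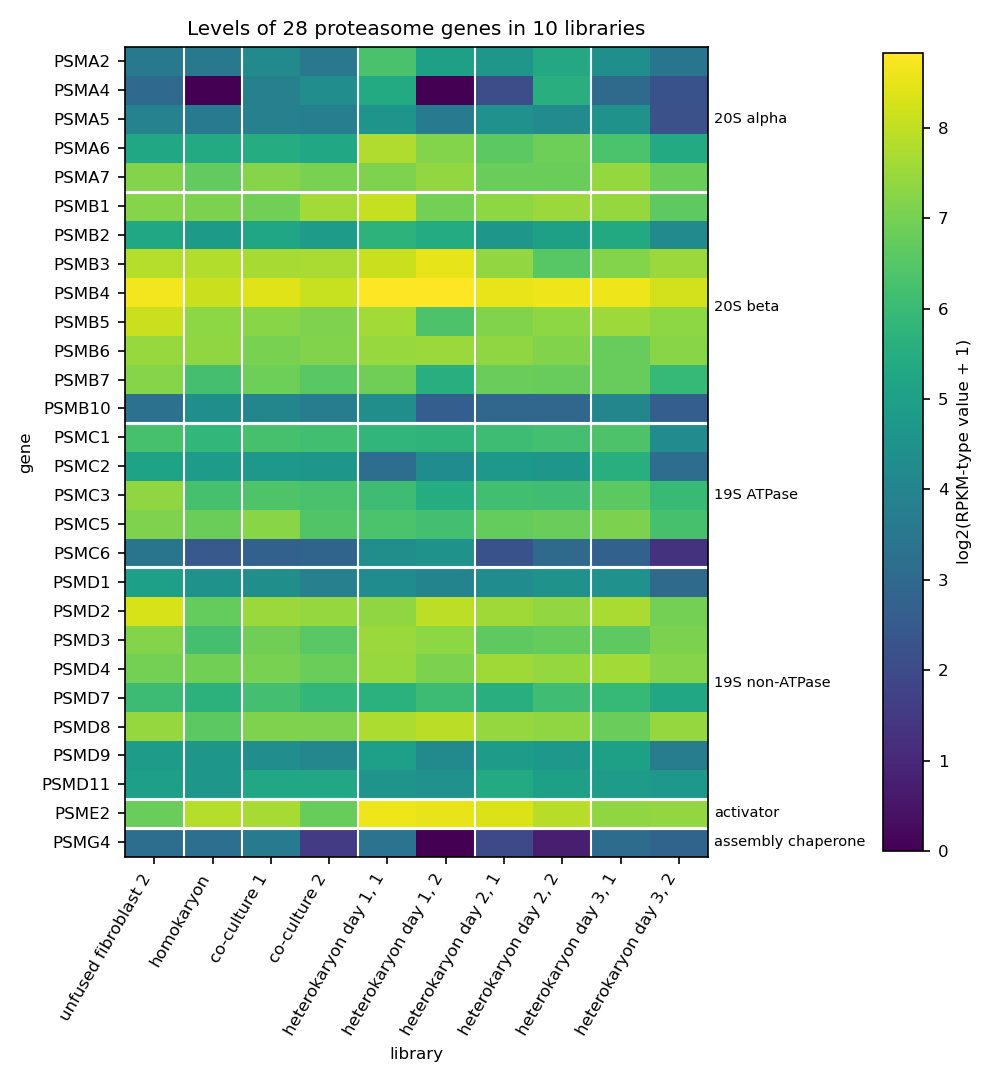
Levels of 28 proteasome genes (rows, grouped by role) in 10 libraries (columns), as log2(value + 1). PSMB4 is the brightest row in every library, and PSMA6 and PSME2 are brighter on day 1 than in the co-cultures.

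The 29 covered genes summed to 3528 and 3138 on day 1, 2792 and 2723 on day 2, 2758 and 2153 on day 3, 2290 in the homokaryon, 2623 and 2319 in co-culture and 3088 in the unfused fibroblast library. As a share of the sum over the 4863 genes covered in all 10 libraries, this was 1.73% and 1.85% on day 1, 1.73% and 1.68% on day 2, 1.86% and 1.25% on day 3, 1.47% in the homokaryon, 1.68% and 1.56% in co-culture and 2.21% in the unfused fibroblast library. The unfused fibroblast library had the largest share and day 3 replicate 2 the smallest. Within day 3, replicate 2 was lower than replicate 1 in 23 of 28 genes, with a median log2 difference of 0.76 against -0.01 over all genes compared. Co-culture had the same tally, 23 of 28 lower in replicate 2, with a smaller median difference of 0.17 against 0.03 over all genes.

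**Figure D2:**
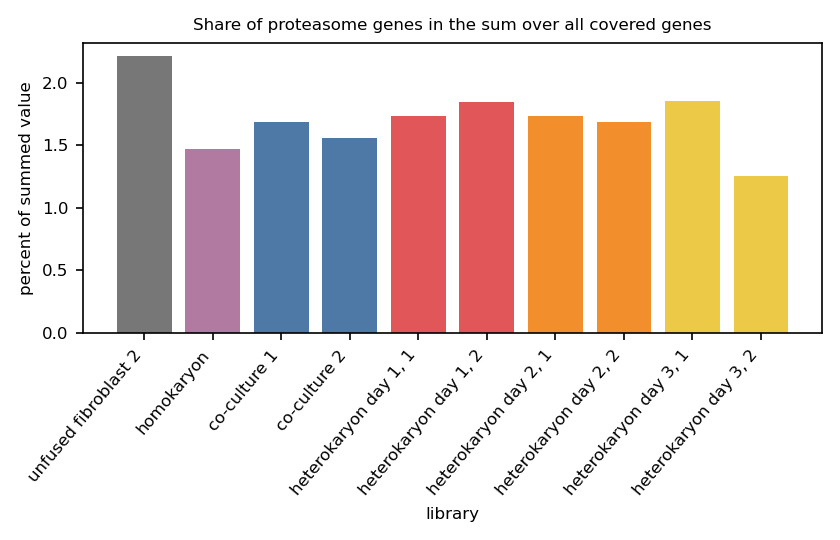
Summed value of the 29 covered proteasome genes as a percentage of the summed value of all 4863 commonly covered genes, one bar per library. Day 3 replicate 2 is lowest at 1.25% and the unfused fibroblast library highest at 2.21%.

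Heterokaryons on day 1 were compared with co-culture, the mixture of the same cells without fusion, in 30 genes (PSMD5 and PSMD14 were also covered there). Only 2 genes were called higher and none was called lower. PSMA6, an alpha-ring subunit, and PSME2, a subunit of the interferon-inducible activator, were the 2. This is 6.67% of the 30, where 13.6% of all 3173 genes tested were called in either direction, 7.82% higher and 5.83% lower, by limma at an adjusted p of 0.05. At an unadjusted p under 0.05 there were 8 genes, 26.7% of the 30, against 30.9% of all genes. The median log2 fold change of the 30 was 0.14, against 0.03 over all genes, and the median size of change was 0.56 against 0.75.

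PSMA6 was at 217 and 147 on day 1, 96.2 and 116 on day 2, 79.7 and 41.6 on day 3, 41.6 in the homokaryon, 43.2 and 38.0 in co-culture and 37.7 in the unfused fibroblast library. The heterokaryon libraries of days 1 and 2 lay above every control, and those of day 3 overlapped the co-cultures. The day 1 difference was 2.11 ± 0.36 (SE) on the log2(value + 1) scale, a 4.32-fold higher level, with an adjusted p of 0.0120 (limma).

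PSME2 was at 392 and 371 on day 1, 328 and 233 on day 2, 163 and 169 on day 3, 230 in the homokaryon, 202 and 108 in co-culture and 113 in the unfused fibroblast library. The homokaryon lay above both co-cultures and just below the lower day 2 library. On day 1 the log2 difference from co-culture was 1.36 ± 0.32 (SE), or 2.56-fold, with an adjusted p of 0.0312 (limma). The summed level of the 3 covered interferon genes, MX1, MX2 and IFIT1, of 6 listed, was 22.8 to 37.4 on day 1, 15.5 in both libraries on day 2, 0.712 to 11.7 on day 3, 378 in the homokaryon, 1.66 to 5.18 in co-culture and 3.79 in the unfused fibroblast library. The other 3 listed interferon genes were all covered on day 1, in co-culture and in the homokaryon. BST2 was also covered in day 2 replicate 2, at 6.45, and on day 3, at 7.55 and 11.8. ISG15 was at 472 and 265 on day 1, 11.6 and 8.56 in co-culture and 149 in the homokaryon, BST2 at 54.9 and 52.7, 3.32 and 0, and 105, and IFI27 at 14.2 and 64.0, 0 and 3.38, and 36.9. All 3 were higher on day 1 than in co-culture, and only BST2 was higher in the homokaryon than in both day 1 libraries. Summed cell cycle genes, 5 of 6 covered, were at 118 to 121 on day 1, 56.6 to 60.5 on day 2, 21.2 to 22.4 on day 3, 1.62 in the homokaryon, 3.47 to 5.25 in co-culture and 59.6 in unfused fibroblasts. The part of either list in the PSMA6 and PSME2 values was not tested.

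**Figure D3:**
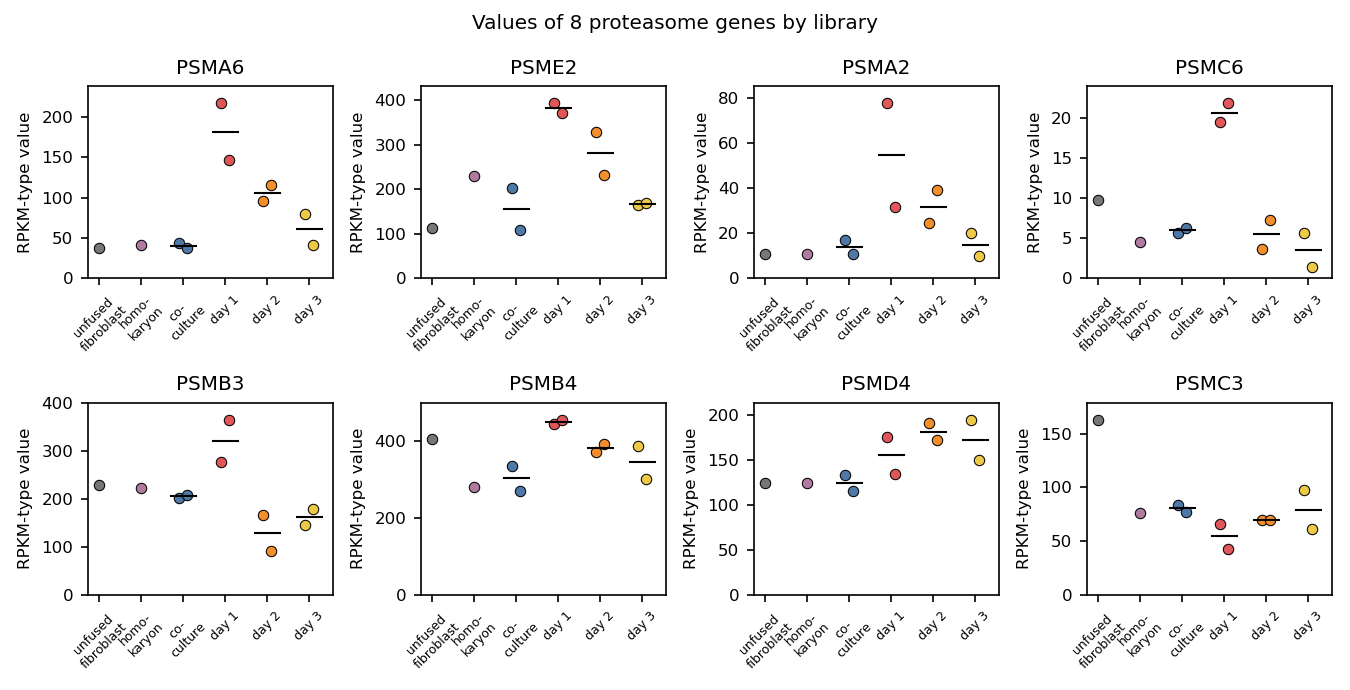
Values of 8 proteasome genes in 10 libraries; each point is 1 library, and horizontal lines are means of 2 libraries. PSMA6 runs from 147 and 217 on day 1 to 41.6 and 79.7 on day 3, and PSME2 from 371 and 392 to 163 and 169.

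Both calls rested on few libraries. PSMA6 on day 1 no longer passed without co-culture replicate 1 (adjusted p = 0.0697) or replicate 2 (0.0891), and PSME2 on day 1 no longer passed with any one of the 4 libraries left out (adjusted p from 0.0506 to 0.200, limma) or under upper quartile scaling, quantile normalization or a fit of only these 2 groups (0.0537, 0.0509 and 0.0738). GENCODE lists 4 pseudogenes of PSMA6 and an overlapping gene on the same strand, and 6 pseudogenes of PSME2, whose reads could be shared. PSME2 also overlaps RNF31 and PSMA2 overlaps MRPL32 on the opposite strand, and whether counting used strand was not given.

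None of the remaining genes passed on day 1. Of all those tested, 11 of 30 lay above both co-culture libraries and 5 below, 36.7% and 16.7%, where all genes gave 31% and 28.1%. The ATPases PSMC1, PSMC2, PSMC3 and PSMC5 were below both co-cultures, by log2 differences of -0.41, -0.92, -0.58 and -0.60 with adjusted p from 0.264 to 0.683 (limma). PSMC6, also an ATPase, was above both, at 19.5 and 21.8 on day 1, 3.67 and 7.30 on day 2, 5.66 and 1.44 on day 3, 4.54 in the homokaryon, 5.66 and 6.26 in co-culture and 9.78 in the unfused fibroblast library. Its day 1 log2 difference of 1.64 ± 0.56 (SE) gave an adjusted p of 0.0937 (limma). PSMA2, an alpha subunit, was at 77.7 and 31.7 on day 1, 24.4 and 39.3 on day 2, 19.998 and 9.85 on day 3, 10.9 in both the homokaryon and unfused fibroblasts, and 17.2 and 10.7 in co-culture. PSMA2 exceeded both co-cultures on days 1 and 2, with an adjusted p of 0.0644 on day 1 (limma), and passed there without day 1 replicate 2 (log2 difference 2.43, adjusted p 0.0395). The 4 others with an unadjusted p under 0.05 were PSMB4 (0.58), PSMD3 (0.66) and PSMD8 (0.71), 2 of them 19S lid subunits, and PSMD11, also of the lid, which was lower (-0.79). Their adjusted p lay between 0.104 and 0.113 (limma). The cutting-site genes PSMB5, PSMB6 and PSMB7 had day 1 log2 differences of -0.19, 0.39 and -0.46, none of which passed. Dividing by the upper quartile or quantile normalizing left 14 of 30 genes positive instead of 18, with medians of -0.06 and -0.04.

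On day 2, PSMA6 was the single gene of 28 called higher than in co-culture, and none was called lower. Its log2 difference was 1.36 ± 0.36 (SE), with an adjusted p of 0.0466 (limma). Over all genes 13.9% were called, 8.92% higher and 4.94% lower. An unadjusted p under 0.05 was found for 2 of the 28, PSMA6 and PSME2, against 28.7% of all genes. PSME2 was 0.89 higher on the log2 scale, with an adjusted p of 0.110. With any one of the 4 libraries left out PSMA6 did not pass on day 2 (adjusted p from 0.163 to 0.298), nor with a pseudocount of 0.1 (0.0573), no filter (0.0766), quantile normalization (0.0576) or partly covered genes included (0.0836). Of the 28 genes 9 lay above both co-cultures and 4 below, where all genes gave 40.6% and 24%. The median log2 difference was 0.00 against 0.26 over all genes.

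On day 3 no proteasome gene passed against co-culture in limma, none at an unadjusted p under 0.05, while 4.64% of all genes were called and 20.6% had an unadjusted p under 0.05. Of the 28 genes 2 lay above both co-cultures and 3 below, where all genes gave 27% and 22.8%, and the median log2 difference was -0.15 against 0.03. Without day 3 replicate 1, PSMC1, an ATPase, was called lower (log2 difference -1.96, adjusted p 0.0186, limma). PSMC1 was at 81.3 and 18.0 on day 3, and at 75.2 and 70.1 in co-culture. These 3 comparisons share the co-culture libraries.

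**Figure D4:**
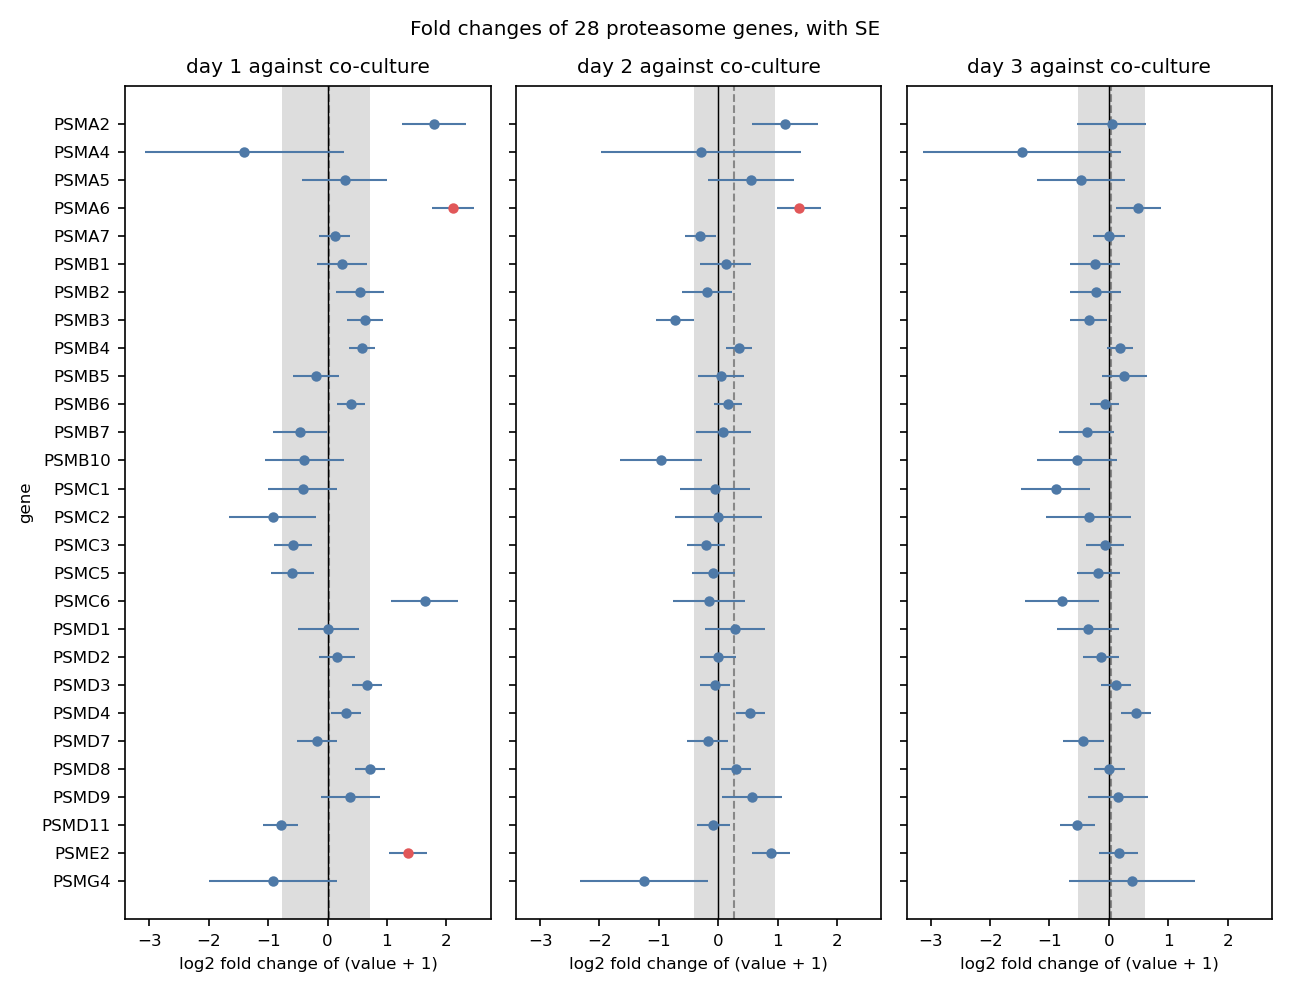
Log2 fold changes of 28 genes against co-culture on days 1, 2 and 3, with standard errors (limma, log2(value + 1)); red points passed an adjusted p of 0.05, the dashed line is the median of all genes tested and the grey band their middle 50%. PSMA6 passes on days 1 and 2, PSME2 on day 1, and none on day 3; PSMD5 and PSMD14, tested on day 1 alone, are not drawn.

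PSMD4, a ubiquitin receptor of the 19S particle, was the only gene on the same side of both co-culture libraries on all 3 days, 1 of 28, where 27% of the 1940 genes tested on all 3 days were. Its values were 175 and 135 on day 1, 191 and 172 on day 2, 194 and 149 on day 3, 124 in the homokaryon, 133 and 115 in co-culture and 125 in the unfused fibroblast library. All 6 heterokaryon libraries were higher than the 4 control libraries. Against co-culture the log2 differences on days 1, 2 and 3 were 0.31, 0.54 and 0.46, with adjusted p of 0.458, 0.193 and 0.368 (limma), and none passed.

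Between heterokaryon days no proteasome gene was called in limma, and 4, 1 and 6 had an unadjusted p under 0.05 for day 2 against 1, 3 against 2 and 3 against 1. These are 14.3%, 3.57% and 21.4% of the 28, against 21%, 9.17% and 20.8% of all genes. Of all genes 0.275%, 0% and 1.77% were called. For day 3 against day 1, PSMA6 fell short of the threshold with a log2 difference of -1.61 (adjusted p 0.0641), as did PSMC6 with -2.42 (0.0757), PSME2 with -1.20 (0.0916) and PSMA2 with -1.75 (0.128). All 4 were among the 10 of 28 genes that were lower in both day 3 libraries than in both day 1 libraries, where 21.7% of all genes were. Without day 3 replicate 1, PSMA6 (-2.08, adjusted p 0.0414) and PSMC6 (-3.15, adjusted p 0.0468) passed. Whether the rise against co-culture is larger on day 1 than later was therefore not shown by these tests.

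PSMB5, whose subunit carries the chymotrypsin-like site, was not called against co-culture on any day, but its value was divided differently between its transcripts. NM_001144932 held 94.0% of the PSMB5 value in the homokaryon and 95.4% and 97.5% in co-culture, but 33.1% in unfused fibroblast replicate 2 and 29.04% to 53.5% in the 6 heterokaryon libraries. Unfused fibroblast replicate 1, which covers only 2 of the 3 transcripts, had 153 for NM_001144932 and 66.6 for NM_001130725, the opposite order to replicate 2 with 91.1 and 184. The PSMB5 totals were 196 and 81.6 on day 1, 140 and 160 on day 2, 185 and 162 on day 3, 160 in the homokaryon, 151 and 139 in co-culture and 275 in the unfused fibroblast library. How the authors divided reads between transcripts of a gene was not given in the sources used here, and the shares are as deposited, with no test. In other genes such shares could differ between replicates of a group. For PSMD11, 1 transcript held 100% and 49.2% of the value in co-culture, 56.3% and 0% on day 2, and 49.2% and 100% on day 3. For PSMD1, 1 transcript held 41.3% to 50.7% in all 10 libraries.

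**Figure D5:**
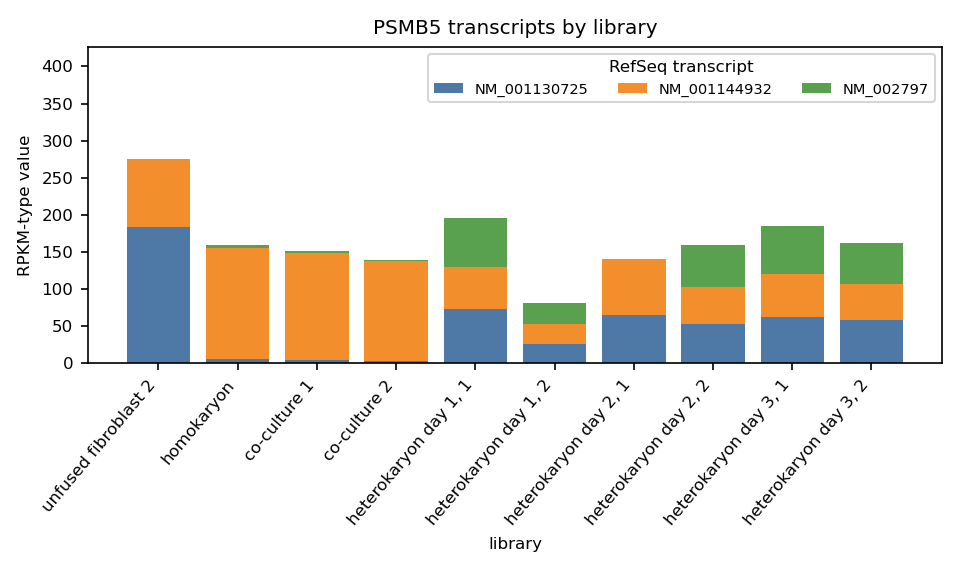
Value of the 3 PSMB5 transcripts, stacked, in 10 libraries. NM_001144932 makes up 94.0% to 97.5% of the bars of the homokaryon and co-cultures and 29.04% to 53.5% of those of the heterokaryons.

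Against unfused fibroblasts with both usable libraries only PSMG4 could be tested, and it was not called on any day or in co-culture, where 26.1%, 18%, 13.8% and 2.96% of all genes were called for days 1, 2, 3 and co-culture. PSMG4 was at 9.30 and 0 on day 1, 2.84 and 0.680 on day 2, 7.77 and 6.16 on day 3, 8.35 in the homokaryon, 11.4 and 1.96 in co-culture and 6.95 and 8.24 in unfused fibroblasts, so that its libraries overlapped those of unfused fibroblasts except on day 2, where 26.2% of all genes lay below without overlap. Without day 1 replicate 1, PSMG4 was called lower on day 1 (log2 difference -3.10, adjusted p 0.0484, limma). With replicate 2 alone, whose spread is assumed to match that of the other groups, 28 genes could be tested. PSMA6 (log2 difference 2.21, adjusted p 0.0305) and PSME2 (1.75, adjusted p 0.0449) rose on day 1 (limma), where 5.29% of all genes were called. None passed on day 2, on day 3 or in co-culture, where 3.91%, 2.03% and 0.435% were called. PSMC3, an ATPase, was at 163 in that library and at 42.8 to 97.3 in all others, and its day 1 difference of -1.59 gave an adjusted p of 0.0664. Of the 28 genes, 13 were lower than in replicate 2 on day 1, 20 on day 2, 23 on day 3 and 21 in co-culture. Their median log2 differences were 0.04, -0.28, -0.44 and -0.26, where those of all genes were 0.07, 0.28, 0.00 and -0.01.

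The homokaryon, with 1 library, was compared without a test. It was lower than unfused fibroblast replicate 2 in 24 of 28 genes, with a median log2 difference of -0.35 against 0.01 over 2117 genes. Past 2-fold on the value + 1 scale, PSMB10 (20.01 against 8.72) and PSME2 (230 against 113) were higher, where 18% of genes were. Lower past 2-fold were PSMA4 (not listed in the homokaryon and so counted as 0, against 7.05), PSMC3 (76.2 against 163) and PSMD2 (107 against 310), where 17.3% of genes were. PSMC6, at 4.54 against 9.78, was past 2-fold only in the ratio of the values themselves. PSMB10 and PSME2 both belong to the interferon-inducible forms of the complex, and the interferon genes summed to 378 in the homokaryon and 3.79 in unfused fibroblasts, whose part in these values was not tested. PSMB9, left out by the choice of genes, was at 25.9 in the homokaryon and 3.92 in unfused fibroblasts, but between 1.51 and 25.4 in heterokaryons. The covered transcript of PSMB8, also left out, was at 0 in the homokaryon, 10.9 and 4.01 in co-culture and 7.504 and 45.2 on day 1.

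Related genes of the ubiquitin system, a list of 32, gave no call: 10 were tested on day 1 and 6 on days 2 and 3, with 2, 0 and 0 at an unadjusted p under 0.05. NFE2L1, the transcription factor that restores proteasome genes when the proteasome is inhibited, was at 98.5 and 100 on day 1, 134 and 137 on day 2, 150 and 135 on day 3, 122 in the homokaryon, 119 and 112 in co-culture and 137 in the unfused fibroblast library. Of the 10 genes covered in part, 8 could be tested on day 1 from their covered transcripts. PSMG3, an assembly chaperone, was at 24.2 and 4.11 on day 1 and 0 in both co-cultures, from 1 of its 2 accessions. It entered that test only through the day 1 libraries where it is high, and its adjusted p of 0.0494 (limma) is given as a description. PSMG3 was at 5.57 and 24.9 on day 2 and at 0 on day 3.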

How the data were processed

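The 12 deposited tables list 1 value per RefSeq accession. Their values are taken to be RPKM-type, a reading of the deposited files that no label states. The genome builds are hg19 and mm10, per the submitters' processing notes, with no aligner named in any source used here. NM_ accessions were matched to gene symbols with RefSeq, and 118 older ones with GENCODE; 283 stayed unnamed. Transcript values were summed per gene. A missing accession counted as 0 only before the end of a table. Genes at 1 or more in 2 libraries were tested on log2(value + 1) with limma 3.58.1 (R 4.3.3), pooling the spread over all groups with 2 or more libraries, and Benjamini-Hochberg adjustment over all genes tested; an adjusted p under 0.05 was called. The script was tested on simulated data. Groups follow the titles. Named genes were those called in any comparison, the highest of each role, and those on one side of co-culture on all 3 days; others were chosen after seeing values. The members and lists were chosen with earlier results of these data known. Scaling, filters, pseudocounts, replicate block and left-out libraries were tried as alternatives.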

Additional observations from a re-analysis of the deposited data

Results flagged for a closer look

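PSMB3, a non-catalytic beta subunit, lay above both co-culture libraries on day 1 and below both on days 2 and 3. Its values were 278 and 365 on day 1, 167 and 91.9 on day 2, 146 and 179 on day 3, and 201 and 209 in co-culture. The difference between days was -1.36 on the log2 scale for day 2 against day 1 (adjusted p 0.0763, limma) and -0.972 for day 3 against day 1 (adjusted p 0.137). Neither passed the threshold, and the co-culture libraries are shared by these comparisons.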

How the results depend on the processing

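The count of proteasome genes called stayed within 1.5 times its value in 92 of 100 settings that left out no library. Most of these settings belong to comparisons whose count was 0 in the main fit, so this tally says little about the calls themselves. On day 1 against co-culture it was 1 instead of 2 under upper quartile scaling, quantile normalization and a fit of only the 2 groups, in each of which PSME2 was lost, and 0 to 2 with a library left out. On day 2 it was 0 instead of 1 with a pseudocount of 0.1, no filter on low values, quantile normalization and genes covered in part, and 0 with any library left out. On day 3 it was 0 to 1 with a library left out. Day 1 against unfused fibroblasts gave 1 (PSMB5) with genes covered in part. That fit left out the PSMB5 transcript not covered by unfused fibroblast replicate 1. The transcript held 33.6% and 35.9% of PSMB5 on day 1 and 0% in unfused fibroblast replicate 2. With all transcripts, against replicate 2 alone, the PSMB5 log2 difference was -1.12. Leaving out a library moved the count for day 1 against unfused fibroblasts and for day 3 against day 1. For all other comparisons, leaving out a library gave 0 in each. PSME2 on day 3 reversed to -0.28 (adjusted p 0.805) without co-culture replicate 2, in a range up to 0.61 with other libraries left out. With the replicate block, the counts were 2 on day 1, 1 on day 2 and 0 on day 3, as without it. The labels do not say whether libraries of the same number were paired. Correlations of same-numbered deviations ran from -0.117 to 0.0811 over all genes compared, and low correlations cannot decide this.

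Counts over all genes moved more. On day 1, 433 genes were called against co-culture, 215 with only those 2 groups fitted and 50 to 327 with a library left out. On day 2 the counts were 303, 522 and 10 to 48, and on day 3 they were 123, 13 and 7 to 128. With the replicate block, day 3 against day 1 gave 0 genes instead of 47. Among the genes called on day 1, the share that was higher was 57.3%, 45.7% under upper quartile scaling and 50.9% under quantile normalization. Among those called on day 2 it was 64.4%, 61.5% and 46.1%. The median of all genes on day 1 moved from 0.03 to -0.15 under upper quartile scaling, and on day 2 from 0.26 to 0.0019 under quantile normalization. Depth is unknown, so no counting error could be given.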

Other observations

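Some of the genes that could not be compared have a value in 1 or 2 libraries. In day 1 replicate 2, whose table reached furthest, PSMC4, an ATPase, was at 73.7, and in the same library 1 accession of the activator PSME1 was at 198 and PSMF1, the inhibitor, at 18.1. Among accessions past the end of a library's own covered range, PSMF1 was listed at 9.72 in day 1 replicate 1, for another transcript than the 18.1. PSMG2, an assembly chaperone, was at 17.6 in day 1 replicate 1 and 0.981 in co-culture replicate 1. Rows past the end each repeat a value given earlier in the same library. No comparison was made with these values.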
